A study of Mus musculus with 42 samples.

Results

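The 77 genes for proteins of the mitochondrial ribosome were followed in RNA-seq read counts from 42 libraries of mouse macrophages differentiated in culture from bone marrow cells (BMDM). They were chosen by name and not by any measured value, though with earlier results of these data known. A row of the count table was a member where its identifier belonged to a protein-coding mouse gene with a symbol of Mrpl or Mrps followed by a digit, which held for 77 of 37310 rows, and 4 pseudogene rows of the same pattern were left out. Of the members, 48 carry the prefix of the large subunit (Mrpl) and 29 that of the small subunit (Mrps), and they lie on 17 chromosomes. Mrpl33 has no row in the table and was not analysed here. Mice labelled KO carried a deletion of Irf5 in myeloid cells, made with a floxed Irf5 allele (flox/flox) and a Cre recombinase expressed from the lysozyme M locus (LysM-Cre, in Lyz2), on a C57BL/6 background, and mice labelled WT were wild type. The mice were male and 7 to 10 weeks old when an experiment began. BMDM of each genotype were taken as Control at 0, 2 or 24 h, or were given the saturated fatty acid palmitate or bacterial lipopolysaccharide (LPS), which activates macrophages, for 2 or 24 h. That gave 14 groups of 3 libraries, and what Control cells received in place of a treatment was not given in the sources used here. Whether the libraries of a group came from separate animals was not given in the sources used here, so the p-values measure the spread between these libraries, which may be technical.

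The mitochondrial ribosome sits in the mitochondrial matrix and translates the few proteins encoded by mitochondrial DNA (mtDNA), which are subunits of the respiratory chain and of ATP synthase. Its ribosomal RNAs come from mtDNA, whereas all its proteins are encoded in the nucleus, translated in the cytosol and imported. Macrophages that respond to LPS are known to shift from respiration towards glycolysis, so the supply of the parts that build respiratory complexes is of interest in these cells. In bulk RNA, fewer cells of a type and less RNA per cell cannot be told apart, and a level below is a share of the library's reads, given as TMM-scaled CPM (reads of a gene relative to all reads of its library).

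The libraries held 2848793 to 7743442 counts. Macrophage genes were present in all 42 of them, with Adgre1 (F4/80) at 1159 CPM or more and Csf1r at 1622 CPM or more. Irf5 was not lower in the libraries labelled KO. Its log2 difference, KO minus WT, lay between 0.04 for palmitate 2 h and 0.47 for LPS 24 h, and a count over the whole gene does not show a deleted exon. Lyz2, which carries the Cre, was lower in KO libraries in all 7 conditions (log2 difference -1.11 to -0.51). Groups are therefore named by their labels. Summed markers of T and NK cells were at most 2.28 CPM and those of erythroid cells at most 0.519 CPM in any library, with Hbb-bs at 0 counts throughout. B cell markers summed to at most 13.4 CPM and dendritic cell markers to at most 10.4 CPM. Other lists reached more. Granulocyte markers, a list with Lcn2, summed to 451 CPM in a WT LPS 24 h library, and fibroblast markers to 306 CPM in a KO palmitate 2 h library. Library 1 of KO LPS 2 h was the shallowest, with 2848793 counts, and stood apart from the other 2 of its group in the members' level.

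Levels of the members were low and of one order. The mean over 42 libraries lay between 6.31 and 42.7 CPM for the 76 members that passed the filter on low counts. Mrpl53 was the exception, with 0 counts in every library. Its exons share 695 bases on the same strand with another counted gene, Gm42688, so these counts cannot tell whether the gene was silent. Per kb of exon, Mrpl52 (35.5 CPM per kb), Mrpl18 (30.6) and Mrps21 (30.2) had the highest mean level, and Mrps35 (1.17), Mrpl47 (1.51) and Mrpl48 (1.81) had the lowest of those tested. When the length of the longest coding transcript was used instead, these values became 85.0, 35.04 and 45.7 CPM per kb for the first 3 and 2.43, 1.98 and 3.44 for the last 3, so the order depends on the gene model. Across the 14 groups Mrps33 and Mrps12 were the steadiest members, with a standard deviation (SD) of the group mean of 0.09 and 0.11 on the log2 scale, and Mrps6 (0.42), Mrpl45 (0.36) and Mrps16 (0.35) varied the most. Exons of 27 members overlap another counted gene, 4 of them on the same strand, and 50 members have no such overlap.

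Promoters are shown for 4 of the members called changed most often in comparisons of 2 groups. Mrpl42 was called in 4 and 8 members in 3, and of these 8 the 3 with the smallest adjusted p in any comparison were taken. Mrpl42 is a protein found in mitochondrial but not bacterial ribosomes. Mrpl45 holds the ribosome at the inner membrane, Mrpl12 is a protein of the large subunit's stalk that also binds the mitochondrial RNA polymerase, and Mrps6 is a small-subunit protein whose gene overlaps exons of the inositol transporter gene Slc5a3. Sequences run 5′ to 3′ on the gene's strand from 250 bases before to 50 bases after the gene's start, from RefSeq on GRCm38.p6. They lie at chr10:95501900-95502199 on the minus strand for Mrpl42, and on the plus strand at chr11:97315466-97315765 for Mrpl45, chr11:120484387-120484686 for Mrpl12 and chr16:92058086-92058385 for Mrps6. Capitals mark a match to AAGATGGC, a core of the motif of YY1.
Mrpl42: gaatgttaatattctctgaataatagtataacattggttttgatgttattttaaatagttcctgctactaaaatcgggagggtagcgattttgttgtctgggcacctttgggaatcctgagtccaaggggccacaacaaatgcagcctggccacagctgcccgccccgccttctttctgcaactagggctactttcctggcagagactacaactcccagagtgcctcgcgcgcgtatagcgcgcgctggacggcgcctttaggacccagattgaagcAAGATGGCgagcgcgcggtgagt
Mrpl45: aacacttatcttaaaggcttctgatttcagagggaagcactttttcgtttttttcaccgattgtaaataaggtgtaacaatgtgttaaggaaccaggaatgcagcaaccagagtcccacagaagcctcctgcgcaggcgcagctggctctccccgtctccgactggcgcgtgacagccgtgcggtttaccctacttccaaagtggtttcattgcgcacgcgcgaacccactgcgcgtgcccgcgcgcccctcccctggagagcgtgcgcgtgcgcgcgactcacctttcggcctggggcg
Mrpl12: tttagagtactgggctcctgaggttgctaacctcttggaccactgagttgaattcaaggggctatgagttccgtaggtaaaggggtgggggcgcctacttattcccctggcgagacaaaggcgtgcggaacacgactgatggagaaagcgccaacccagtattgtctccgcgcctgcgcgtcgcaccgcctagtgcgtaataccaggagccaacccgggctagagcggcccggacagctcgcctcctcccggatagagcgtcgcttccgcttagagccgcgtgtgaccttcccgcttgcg
Mrps6: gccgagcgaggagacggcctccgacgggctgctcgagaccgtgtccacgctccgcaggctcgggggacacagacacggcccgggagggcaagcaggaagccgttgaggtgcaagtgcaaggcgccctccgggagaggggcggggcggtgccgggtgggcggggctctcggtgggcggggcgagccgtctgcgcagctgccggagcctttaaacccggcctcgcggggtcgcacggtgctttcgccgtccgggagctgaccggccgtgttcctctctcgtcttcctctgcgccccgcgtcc
The match in Mrpl42 starts 27 bases after the gene's start, and the other 3 sequences hold none of the motifs searched. Of the 5 tied members not shown, Mrpl18 and Mrpl51 hold the ETS core, Mrpl22 the ETS and NRF1 cores, Mrpl35 the YY1 core and Mrps14 none of them.

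Of the 77 members, 68 had a promoter in the RefSeq table. On either strand, AAGATGGC was found in 12 of them (17.6%), against 5.76% of the 8900 tested genes with a promoter and 3.19% of all 27025 promoters. CCGGAAG, a core bound by ETS factors such as GABP, was found in 25 members (36.8%), 21.6% of tested genes and 9.93% of all promoters. GCGCATGC, a core of the NRF1 motif, was found in 7 members (10.3%), 6.36% of tested genes and 3.05% of all promoters. YY1, GABP and NRF1 are textbook regulators of nuclear genes for mitochondria. The ETS core was in 6 of the 15 matched members that rose after 24 h of LPS in both genotypes and in 12 of the 36 called in neither, and the YY1 core was in 4 and 7 of these. The NRF1 core was in 1 and 2 of them. A match is a string in a window and not a measured binding site.

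Mitochondrial ribosomal proteins rose after 24 h of LPS in both genotypes. Their summed level was 1359 ± 36.9 CPM (SD, n = 3) in WT Control 24 h and 1740 ± 45.7 CPM in WT LPS 24 h, and 1345 ± 43.7 CPM in KO Control 24 h against 1676 ± 16.1 CPM in KO LPS 24 h. The 6 LPS 24 h libraries, at 1661 to 1792 CPM, all stood above the other 36, which lay between 1059 and 1473 CPM. In WT cells 29 of 76 members were higher and 0 lower (edgeR quasi-likelihood F test, Benjamini-Hochberg adjusted p under 0.05), where 19.6% of 11624 genes tested were higher and 19.9% lower. In KO cells 27 were higher and 0 lower, where 19.9% of genes were higher and 21% lower. The median log2 fold change of the members was 0.34 in WT and 0.29 in KO, against -0.01 over all genes in each, and 70 and 64 of 76 members had a positive value. In WT, 42 members had all LPS libraries above all Control libraries, as had 24.3% of genes, and in KO 32 members, as had 24.7% of genes. DESeq2 gave 27 members higher in WT and 23 in KO, with 0 lower.

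**Figure D1:**
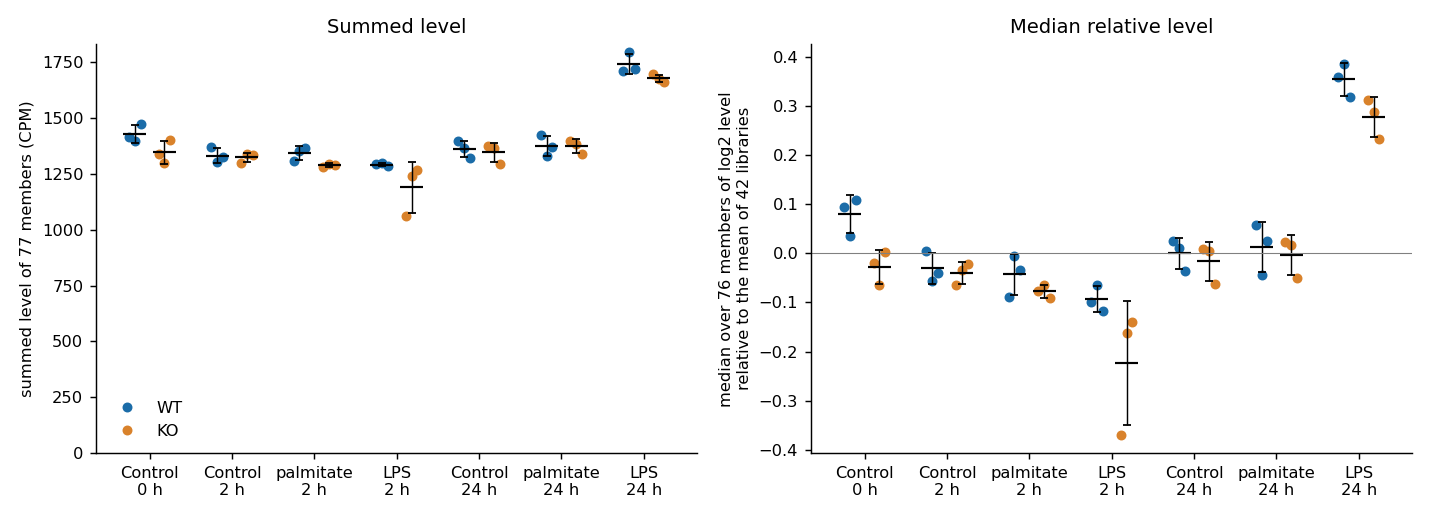
Level of the mitochondrial ribosomal proteins in each library. The left panel gives the summed level of 77 members in CPM and the right panel the median over 76 members of the log2 level relative to the mean of 42 libraries; each point is a library (blue WT, orange KO) and bars are the mean ± SD of 3. The LPS 24 h libraries sit above all others in both panels, and library 1 of KO LPS 2 h is the lowest.

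Most of these calls were shared between the genotypes. Of the members called higher, 19 were called in both genotypes, which is 65.5% of the 29 in WT and 70.4% of the 27 in KO, and the 2 comparisons share no library. The same overlap was not counted over all genes called higher, so this sharing is not shown to be particular to the members. The 19 members were Mrpl12, Mrpl13, Mrpl18, Mrpl21, Mrpl30, Mrpl35, Mrpl38, Mrpl40, Mrpl42, Mrpl45, Mrpl46, Mrpl47, Mrpl52, Mrpl54 and Mrpl57 of the large subunit and Mrps18a, Mrps18b, Mrps24 and Mrps28 of the small subunit. A further 18 were called in 1 genotype and 39 in neither. No member's LPS effect at 24 h was called different between genotypes when the difference itself was tested (0 of 76 by edgeR and by DESeq2, where edgeR called 0.0086% of genes). At an unadjusted p under 0.05 edgeR put 6 members, a count that was not made over all genes.

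Mrpl52, a protein with no bacterial counterpart, had the smallest adjusted p of the members in both genotypes. It stood at 38.5, 31.9 and 30.2 CPM in the WT Control 24 h libraries and at 57.2, 59.9 and 55.9 CPM in WT LPS 24 h, which is 0.80 higher on the log2 scale (SE 0.13, adjusted p = 8.37e-07). In KO cells it was 30.05, 37 and 27.04 CPM in Control and 61.9, 62.9 and 58.4 CPM with LPS (log2 fold change 0.96, SE 0.13, adjusted p = 1.19e-08). Neither pair of groups overlapped, and the 6 LPS libraries were the 6 highest for this gene among all 42. Mrpl45 moved alike. WT cells had 35.7, 33.3 and 26.2 CPM in Control and 56.3, 55.1 and 55.7 CPM with LPS (0.83, SE 0.13), and KO cells 30.3, 30.8 and 27.04 CPM against 60.1, 49.7 and 60.8 CPM (0.96, SE 0.13). The lowest LPS library of Mrpl45 was above every Control 24 h library of either genotype.

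Mrpl54, another protein particular to mitochondria, was at 19.4, 18 and 19.8 CPM in WT Control 24 h and at 35.1, 32.8 and 34.9 CPM in WT LPS 24 h (log2 fold change 0.85, SE 0.16), and rose by 0.82 (SE 0.16) in KO. Mrpl3, one of the conserved core proteins of the large subunit, was called in WT and not in KO. It rose in WT from 34.5, 32.4 and 33.1 CPM to 48.1, 46.7 and 49.0 CPM (0.53, SE 0.12, adjusted p = 0.000188). In KO its Control libraries were already at 44.0, 38.1 and 38.5 CPM and its LPS libraries at 47.1, 41.3 and 43.9 CPM, which overlap (0.14, SE 0.11, adjusted p = 0.333). That pair of effects was not shown to differ, since no interaction passed the test. Mrpl12 was at 32, 33.8 and 39.6 CPM in WT Control and at 48.1, 53.6 and 47.9 CPM with LPS (0.49, SE 0.11), with a rise of 0.57 (SE 0.11) in KO. Mrpl42 and Mrpl35 were among the clearest in KO. Mrpl42 went from 28.6, 29.9 and 24.9 CPM to 41.9, 42.01 and 45.1 CPM (0.64, SE 0.12), and Mrpl35 from 13.9, 15.5 and 18.3 CPM to 27.9, 25.4 and 28.8 CPM (0.77, SE 0.14). In WT they rose by 0.46 (SE 0.12) and 0.49 (SE 0.14).

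**Figure D2:**
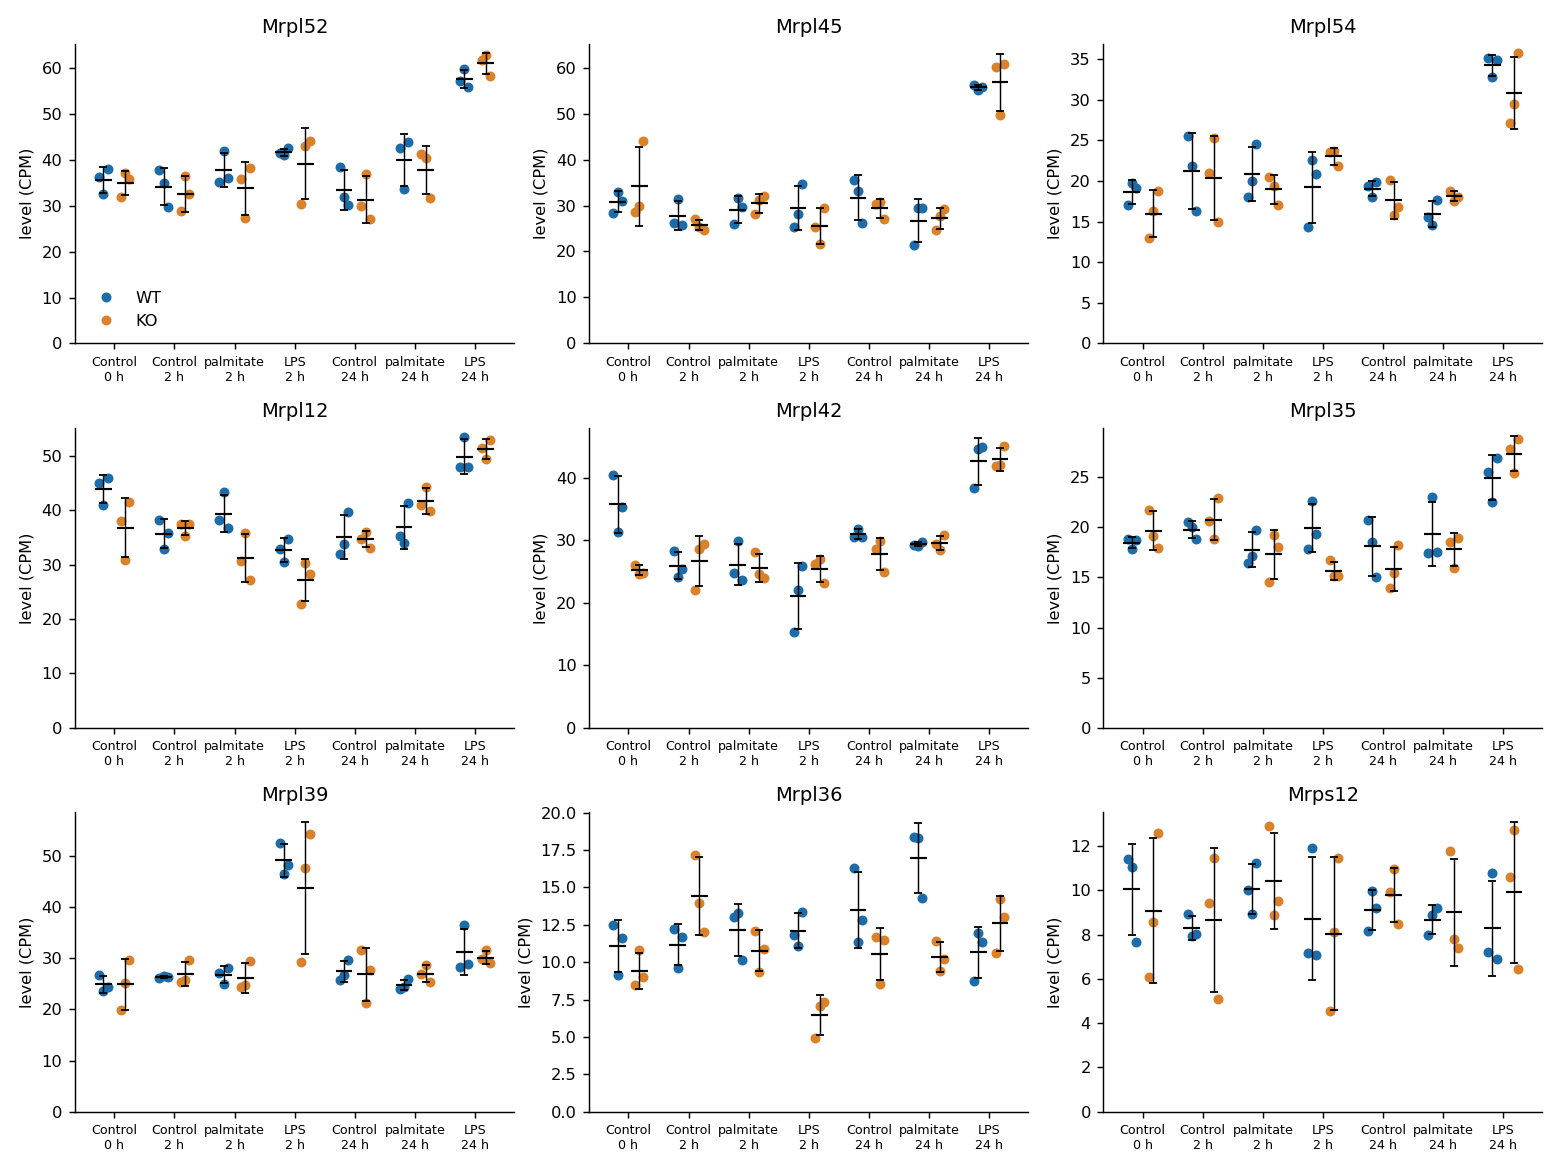
CPM of 9 members in each library by condition, with points in blue for WT and in orange for KO and bars for the mean ± SD of 3 libraries. The first 6 members have their highest mean at LPS 24 h, Mrpl39 has its highest at LPS 2 h, Mrpl36 has its lowest in KO LPS 2 h, and Mrps12 overlaps across conditions.

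Not every member followed. Mrps12, a protein of the decoding centre, was at 8.14, 9.94 and 9.18 CPM in WT Control 24 h and at 7.19, 10.8 and 6.89 CPM in WT LPS 24 h (log2 fold change -0.15, SE 0.27, adjusted p = 0.715), and its value in KO was 0.01 (SE 0.27). Mrpl10, which carries the stalk, had 0.17 (SE 0.16) in WT and 0.28 (SE 0.16) in KO, and neither passed the test. It overlaps Gm11574 by 240 bases on the other strand. Mrpl58, a hydrolase that frees stalled ribosomes, had 0.10 (SE 0.16) and -0.05 (SE 0.16). Mrps36, now known as a component of the oxoglutarate dehydrogenase complex and not of the ribosome, had 0.47 (SE 0.22, adjusted p = 0.0863) in WT and -0.15 (SE 0.21) in KO. Mrps6 had -0.48 (SE 0.26, adjusted p = 0.141) in WT and -0.09 (SE 0.24) in KO. Of the members highest per kb, Mrps21 had 0.21 (SE 0.15) and 0.34 (SE 0.16), neither called, whereas Mrpl18 rose by 0.33 (SE 0.11) in WT and 0.32 (SE 0.11) in KO. Of the lowest, Mrpl47 rose by 0.77 (SE 0.25) and 0.63 (SE 0.25), while Mrpl48 had 0.18 (SE 0.17) and -0.17 (SE 0.17), and Mrps35 0.22 (SE 0.20) and -0.28 (SE 0.20).

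The medians of both subunits were above 0. Of 47 tested proteins of the large subunit, 23 were higher in WT (median log2 fold change 0.38) and 20 in KO (0.33). Of 29 proteins of the small subunit, 6 were higher in WT (0.30) and 7 in KO (0.15). Over all genes 19.6% were higher in WT and 19.9% in KO, and the small-subunit counts are near these shares. Whether the subunits differed was not tested. Among the 50 members whose exons overlap no counted gene, 21 were higher in WT and 19 in KO, with medians of 0.39 and 0.33. The count in WT was 19 without library 3 of WT Control 24 h, the count in KO was 14 without library 3 of KO Control 24 h and 17 without library 1 of KO LPS 24 h, and with library totals in place of TMM it was 25 and 13. The shares of all genes called in these fits are not given here. In WT 1 member, Mrps6, was lower when library 2 of LPS 24 h was left out.

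Ribosomal proteins of the mitochondrion that carry other names moved the same way. Of the 5 listed, 4 were higher in WT LPS 24 h (Chchd1 0.92, Dap3 0.56, Gadd45gip1 0.52 and Aurkaip1 0.32) and 2 in KO (Gadd45gip1 0.51 and Aurkaip1 0.38), with medians of 0.52 and 0.38. Their sum was 123 to 142 CPM in WT Control 24 h and 170 to 185 CPM in WT LPS 24 h. Ptcd3, the remaining one, had -0.09 (SE 0.17) in WT and -0.26 (SE 0.17) in KO. Factors that serve the ribosome showed no such rise as groups. Of 11 translation factors 1 was higher in WT (Mtrf1, a release factor, 1.26), and in KO 1 was higher (Tufm, the elongation factor that brings tRNA, 0.33) and 2 lower (Guf1 -0.55, Mrrf -0.57), with medians of -0.02 and 0.02. Of 20 mitochondrial tRNA synthetases 0 were higher and 1 lower in each genotype (Iars2 -0.23 in WT, Yars2 -0.69 in KO). Beside these lists, 19.6% of all genes were higher and 19.9% lower in WT, and 19.9% and 21% in KO.

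Assembly factors stood between by their medians. Of 25, 2 were higher and 1 lower in WT and 6 higher in KO, with medians of 0.09 and 0.22. Over all genes 19.6% were higher in WT and 19.9% in KO, so the count of higher ones is below that share in WT and near it in KO. Mpv17l2, an inner membrane protein needed to build the large subunit, rose by 0.80 (SE 0.24) in WT and 1.00 (SE 0.24) in KO, and Dhx30, an RNA helicase of assembly, by 0.24 and 0.36. Noa1, a GTPase of small-subunit assembly, fell by 0.46 in WT. Slirp, which stabilises mtDNA transcripts, rose from 11.2 ± 1.54 to 22.5 ± 0.882 CPM in WT (SD, n = 3, log2 fold change 1.00) and by 0.92 in KO.

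Transcripts of mtDNA moved in the opposite direction to the proteins of the ribosome. Of the 13 mtDNA protein genes 8 passed the filter, and of these 3 were lower in WT LPS 24 h (median -0.24) and 8 in KO (median -0.56), with 0 higher. Over all genes 19.9% were lower in WT and 21% in KO. The sum of the 13 overlapped in WT, at 4370 to 4725 CPM in Control and 2921 to 4403 CPM with LPS. Those that failed, mt-Nd4l, mt-Co2, mt-Co3, mt-Atp6 and mt-Atp8, had at most 1.25 CPM in any library, beside a median of 2531 CPM for mt-Co1. Why they were so low was not tested. mt-Cytb, a subunit of complex III, fell from 525 ± 4.01 to 362 ± 81.8 CPM in WT (SD, n = 3, log2 fold change -0.54, adjusted p = 4.00e-05) and from 564 ± 21.3 to 286 ± 47.1 CPM in KO (-0.98, adjusted p = 7.43e-11). The ribosome's own RNAs fell too, mt-Rnr1 by 0.32 in WT and 0.56 in KO and mt-Rnr2 by 0.41 and 0.50 on the log2 scale. Ribosomal RNA was depleted before sequencing, so the levels of mt-Rnr1 and mt-Rnr2 are those left after depletion. No interaction was called for these 10 genes at LPS 24 h.

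Cytosolic ribosomal proteins did not share the rise. Of 80 tested, 4 were higher and 29 lower in WT (median -0.18), and 2 higher and 40 lower in KO (median -0.24). Over all genes 19.6% were higher and 19.9% lower in WT, and 19.9% and 21% in KO. Among them Rpsa fell by 0.61 and 0.58 and Rpl10a by 0.57 and 0.66. The list by symbol held 10 further genes, mostly Rps6k kinases, which are not part of the ribosome, and was 4 higher and 33 lower of 90 in WT and 5 and 44 in KO. The kinases were left out after the values were seen. Many cytosolic ribosomal proteins have near-identical pseudogenes, which makes their counts uncertain. Among nuclear regulators of mitochondrial genes, Esrra (0.89 in WT and 0.98 in KO) and Ppargc1b (0.94 and 1.06) rose, and Myc (-1.56 and -1.49), Gabpa (-0.31 and -0.29) and Gabpb2 (-0.31 and -0.37) fell.

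**Figure D3:**
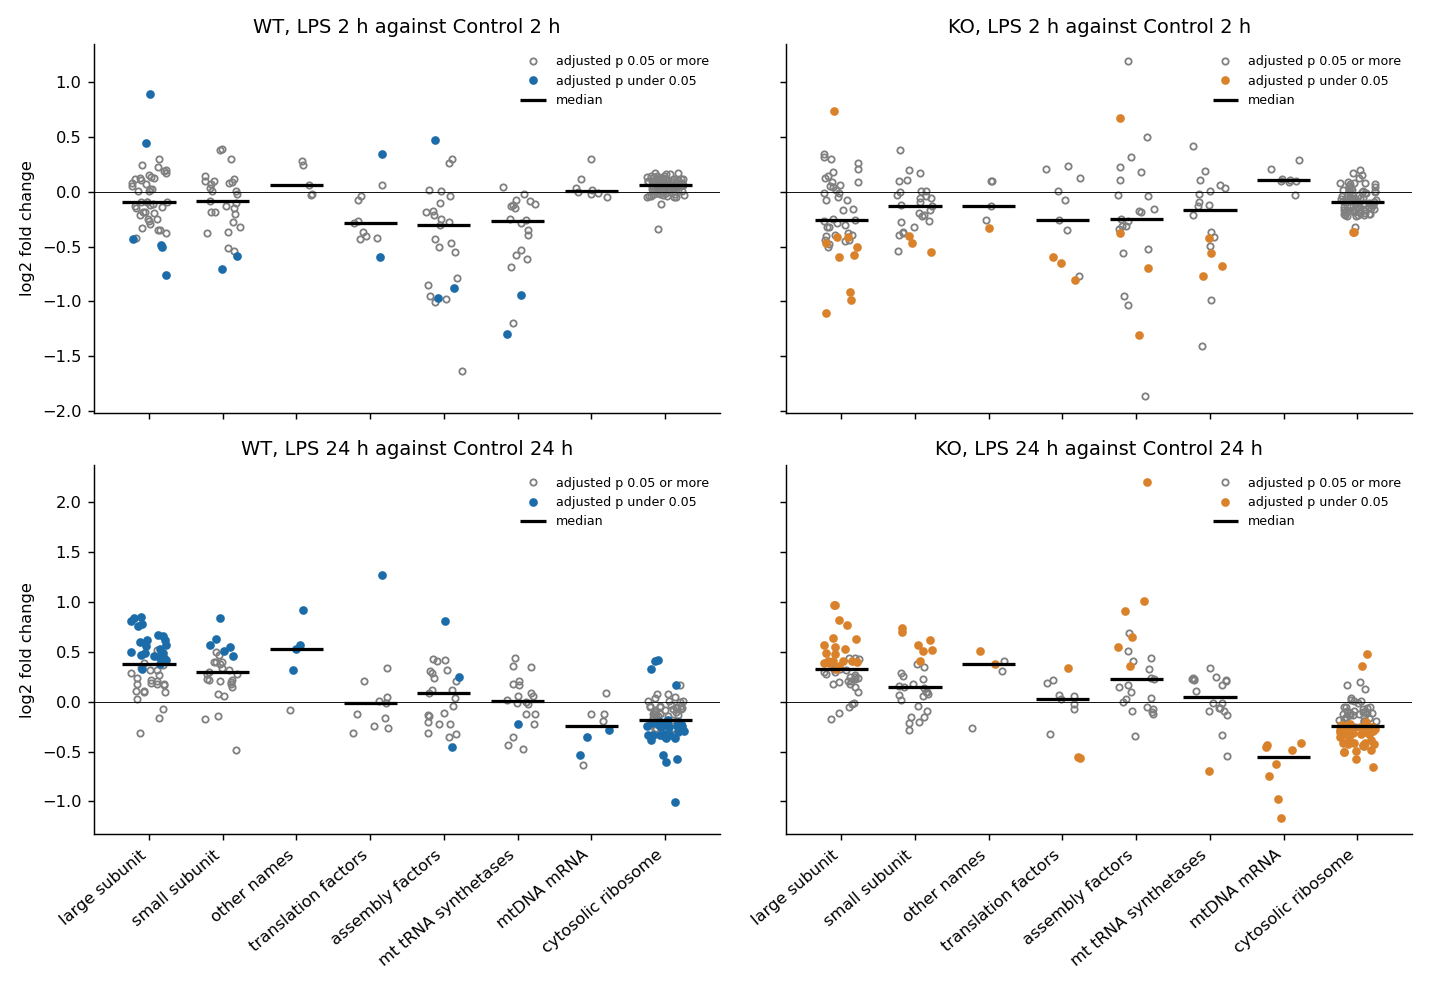
Log2 fold change after LPS of each gene in 8 gene groups, with WT on the left, KO on the right, 2 h in the upper row and 24 h in the lower row. Each point is a gene, filled where the edgeR adjusted p was under 0.05, and the bar is the median of the group. At 24 h the medians of both subunits are above 0 and those of mtDNA mRNA and the cytosolic ribosome below 0.

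Other features of the libraries moved with LPS at 24 h. All 14 cell cycle genes were lower in both genotypes (medians -1.39 and -1.30), and their sum was 414 to 491 CPM in WT LPS 24 h against 916 to 945 CPM in WT Control 24 h, and 450 to 512 CPM in KO LPS 24 h against 943 to 1024 CPM in KO Control 24 h. Of 8 macrophage markers 5 were higher and 2 lower in each genotype. Over all genes 19.6% were higher and 19.9% lower in WT, and 19.9% and 21% in KO. Of 6 tested granulocyte markers 1 was higher in each genotype (Lcn2, which macrophages also make after LPS) and 3 were lower in WT and 4 in KO. The list's sum includes Lcn2, which alone reached 421 CPM in its highest library. That sum was 59.3 to 65.7 CPM in WT Control 24 h and 339 to 451 CPM in WT LPS 24 h. In KO it was 138 to 219 CPM in Control and 331 to 399 CPM with LPS, and Elane was at 0 in the median library. Fibroblast markers summed to 2.74 to 45.2 CPM in WT Control 24 h and 0.171 to 2.48 CPM in WT LPS 24 h, and in KO to 39.5 to 133 CPM and 0.560 to 175 CPM, with 0 of 3 tested called. The part of these in the members' rise was not tested.

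After 2 h of LPS few members had changed, and those called were mostly lower. In WT cells 2 of 76 were higher and 6 lower, where 14% of genes were higher and 9.1% lower, and in KO cells 1 was higher and 12 lower, where 14.7% of genes were higher and 9.16% lower. The WT share of lower members is 6 of 76 and near that of all genes. The median of the members was -0.10 in WT and -0.18 in KO, against -0.01 over all genes. In WT 14 members had all LPS libraries below all Control libraries, as had 16% of genes, and in KO 20 members, as had 15.1% of genes. Among the members without exon overlap, 1 was higher and 3 lower in WT and 1 higher and 8 lower in KO. With library totals in place of TMM, which moves the median of all genes to -0.17 in WT and -0.19 in KO, the split became 1 higher and 19 lower in WT and 1 and 32 in KO. The shares of all genes called under that scaling are not given here, so this split has no background beside it. The KO count of 13 was 7 without library 3 of KO Control 2 h, and 10 without the 4 shallowest libraries. The WT count of 8 was 4 without library 2 of WT LPS 2 h, and 5 without library 3 of that group or without library 1 or 2 of WT Control 2 h.

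Mrpl39 was the member that rose early. This large-subunit protein was at 26.1, 26.5 and 26.4 CPM in WT Control 2 h and at 52.6, 46.4 and 48.3 CPM in WT LPS 2 h (log2 fold change 0.89, SE 0.14, adjusted p = 1.38e-06). In KO cells it was at 25.3, 25.8 and 29.7 CPM in Control and 29.2, 47.6 and 54.3 CPM with LPS (0.73, SE 0.14, adjusted p = 5.54e-05). The WT groups lay well apart, and in KO the shallow library 1 of LPS 2 h fell within the range of Control. By 24 h the same gene was at 28.2, 36.4 and 28.9 CPM in WT LPS and at 25.8, 26.7 and 29.7 CPM in WT Control, which overlap. Mrpl24, a protein of the large subunit, was the other one called higher in WT (22.8, 20.2 and 19.6 CPM against 26.5, 29.8 and 28.2 CPM, 0.45, SE 0.16), and that call was lost without any of 4 libraries, 2 of Control (0.39 and 0.42) and 2 of LPS (0.40 and 0.45), and with library totals in place of TMM (0.28).

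No member was called lower at 2 h in both genotypes, and this does not show that the effects differed, since 0 interactions were called. Mrps35 and Mrpl41, called in WT, had -0.54 and -0.44 in KO, and Mrps26, called in KO, had -0.27 in WT. In WT these included Mrps34 (19.7, 15.9 and 17.5 CPM in Control, 8.94, 12.9 and 12.4 CPM with LPS, log2 fold change -0.59, SE 0.17), Mrpl41 (-0.76, SE 0.25), Mrpl9 (-0.49, SE 0.16) and Mrps35 (-0.70, SE 0.23), all 4 with no overlap between the groups. These calls leaned on single libraries. That of Mrps34 was lost without library 1 of LPS (-0.48), that of Mrpl41 without library 1 of Control (-0.54) or library 3 of LPS (-0.74), that of Mrpl9 without library 3 of Control (-0.29) or library 1 of LPS (-0.35), and that of Mrps35 without library 3 of Control (-0.66) or library 2 (-0.62) or 3 (-0.71) of LPS. In KO the fall was larger for 3 proteins of the large subunit. Mrpl36, a small conserved protein, was at 17.2, 13.96 and 12.05 CPM in Control and 4.94, 7.09 and 7.35 CPM with LPS (-1.11, SE 0.21, adjusted p = 2.99e-05). Mrpl22, which lines the exit tunnel, was at 13.2, 12.4 and 16.3 CPM and then 6.45, 8.31 and 7.14 CPM (-0.91, SE 0.18, adjusted p = 9.25e-05). Both stayed apart in every library, the shallow one and the other 2 alike. Mrpl11, of the centre that stimulates translation GTPases, went from 14.7, 13.4 and 10.0 CPM to 1.90, 9.12 and 6.49 CPM (-0.99, SE 0.26), and Mrps26 from 24.6, 22.6 and 22.4 CPM to 15.2, 15.6 and 16.4 CPM (-0.55, SE 0.14).

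Mrpl36, Mrpl22 and Mrpl11 had log2 fold changes of 0.12, -0.10 and 0.13 with LPS at 2 h in WT cells, and none was called. The difference between genotypes, as an interaction, was -1.23 (SE 0.28) for Mrpl36, -0.82 (SE 0.25) for Mrpl22 and -1.12 (SE 0.36) for Mrpl11, and none passed adjustment over all genes (edgeR adjusted p = 0.257, 0.365 and 0.365). Over the members, 0 of 76 interactions were called at LPS 2 h by edgeR or DESeq2, where edgeR called 0% of genes. At an unadjusted p under 0.05 edgeR put 10 members, and the share of all genes at that threshold was not counted.

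**Figure D4:**
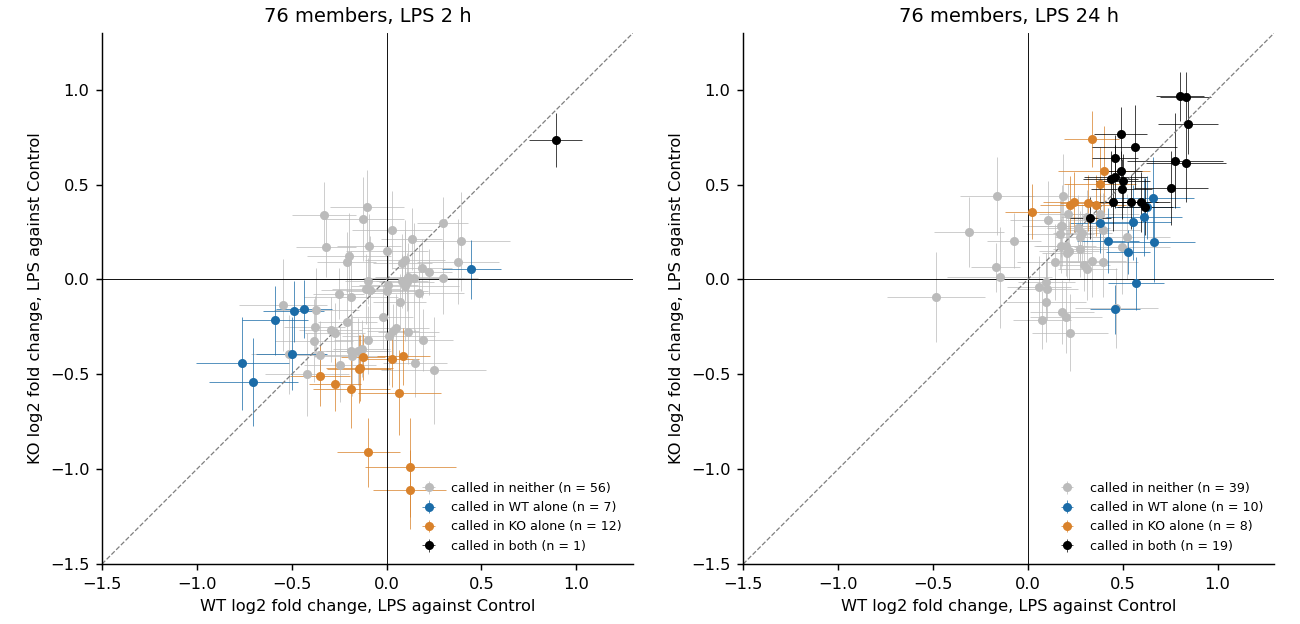
Log2 fold change after LPS in KO (vertical axis) against WT (horizontal axis) for 76 members, at 2 h on the left and 24 h on the right. Lines through each point span 1 SE either side, colours give the genotype in which the member was called, and the dashed line marks equal values. At 24 h the 19 members called in both lie above 0 on both axes, and at 2 h Mrpl39 is the only one called in both.

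Related genes at 2 h showed early changes of their own. Twnk, the helicase that copies mtDNA, fell by 1.62 in WT and 1.79 in KO on the log2 scale, and Mtif3, an initiation factor of mitochondrial translation, by 0.59 and 0.65. Twnk was low, with a median of 5.92 CPM over the 42 libraries and 2 counts in its lowest. Its exons share 507 bases with the member Mrpl43 on the other strand. Twnk, Mtif3 and Tfam come from longer lists, whose counts called at 2 h are not given here. Tfam, which packages and transcribes mtDNA, fell by 0.64 in WT, with -0.29 (SE 0.17, adjusted p = 0.222) in KO. Gabpb1 (0.71 and 0.86) and Gabpa (0.43 and 0.32), the subunits of GABP, rose in both, as did Noa1 (0.47 and 0.67). Of the 8 tested mtDNA protein genes 0 were called in either direction in either genotype by edgeR, and of the 80 cytosolic ribosomal proteins 0 in WT and 2, lower, in KO. Over all genes 14% were higher and 9.1% lower in WT, and 14.7% and 9.16% in KO. The 5 ribosomal proteins under other names had 0 called in WT and 1, Aurkaip1, lower in KO (-0.33).

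The LPS effect on the members thus differed between 2 and 24 h, and the difference itself was tested. In WT 22 members had a higher effect at 24 h and 1 a lower one, where 14.5% of genes were higher and 18.1% lower, and in KO 25 and 1, where 14.3% were higher and 19% lower. The medians of the difference were 0.47 and 0.49, and that of all genes was close to 0. The member with a lower effect at 24 h was Mrpl39 in each genotype (-0.72 in WT and -0.56 in KO). In WT the clearest were Mrpl41 (1.42, SE 0.33), Mrpl51 (0.92, SE 0.22), Mrpl54 (0.94, SE 0.23) and Mrpl46 (0.93, SE 0.23). In KO they were Mrpl12 (0.98, SE 0.16), Mrpl35 (1.19, SE 0.21), Mrpl22 (1.21, SE 0.24) and Mrpl36 (1.36, SE 0.28). Mrpl41 had the largest difference of these in WT. There it was at 14.1, 9.60 and 8.59 CPM in Control 2 h, 6.08, 6.58 and 6.13 CPM in LPS 2 h, 11.5, 8.23 and 7.72 CPM in Control 24 h and 14.7, 13.9 and 13.8 CPM in LPS 24 h, so it was below its Control at 2 h and above it at 24 h.

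No member was called changed by palmitate. Genes of fatty acid handling responded, with Plin2, a lipid droplet protein, up by 0.93 in WT and 1.10 in KO at 2 h and by 1.99 and 2.02 at 24 h on the log2 scale. Of the 76 members 0 were called at 2 h in WT (0.275% of genes called), in KO (0.112%), at 24 h in WT (0.852%) or in KO (0.877%), and DESeq2 gave 0 in all 4 as well. With so few genes called over all, a count of 0 is near the background. At an unadjusted p under 0.05 there were 3, 6, 2 and 3 members, a count that was not made over all genes. The medians were 0.02, -0.06, 0.02 and 0.04, and single members lay between -0.50 and 0.55. No difference in the palmitate effect between genotypes was called for a member by edgeR or DESeq2, at 2 h (0 of 76, where 0% of genes were called) or at 24 h (0 of 76, where 0% were called). At an unadjusted p under 0.05 there were 9 members at 2 h and 2 at 24 h, again not counted over all genes.

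Few members changed with time in Control. Between 0 and 2 h, 0 were higher and 3 lower in WT, where 14.3% of genes were called, and 1 was higher and 2 lower in KO, where 12.1% were. In WT these were Mrpl42 (40.5, 31.4 and 35.3 CPM at 0 h, 28.3, 24.2 and 25.5 CPM at 2 h, log2 fold change -0.46, SE 0.12), Mrpl18 (-0.33, SE 0.11) and Mrpl17 (-0.46, SE 0.16). Leaving out library 1 of 0 h or library 2 of 2 h ended all 3 calls (Mrpl42 -0.37 and -0.41), leaving out library 3 of either time left 1, and that of Mrpl17 was lost without any one of the 6 libraries. In KO, Mrpl36 rose by 0.61 (SE 0.19) and Mrpl45 fell by 0.41 (SE 0.14). The fall of Mrpl45 rested on 1 library, at 28.7, 29.8 and 44.1 CPM at 0 h and 26.96, 25.4 and 24.8 CPM at 2 h, and was -0.18 and not called without the third, nor called without any one library of 2 h (-0.45, -0.40 and -0.38). The rise of Mrpl36 was not called without library 1 (0.54) or 3 (0.58) of 0 h or library 1 of 2 h (0.46). Between 0 and 24 h, 2 were lower in WT, where 12.1% of genes were called, and 1 in KO, where 8.17% were, with 0 higher. Those in WT were Mrpl51 (21.5, 22.6 and 20.8 CPM at 0 h, 14.3, 15.6 and 14.4 CPM at 24 h, -0.54, SE 0.15) and Mrps14 (-0.39, whose libraries overlap), and without library 3 of 24 h neither was called (Mrpl51 -0.50). The WT count was 4 without library 1 of 24 h and 1 without library 2 or 3 of 24 h or library 3 of 0 h, and the KO count, which was Mrps6, was 2 without library 1 of 0 h. Over the same interval 66 of 80 cytosolic ribosomal proteins were lower in WT (median -0.34), where 6.42% of all genes were lower.

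The 2 genotypes differed in their time course in Control for 2 members. The change from 0 to 24 h was higher in KO than in WT by 0.79 (SE 0.19, adjusted p = 0.0165) for Mrps14 and by 0.76 (SE 0.21, adjusted p = 0.0377) for Mrpl51, where 1.83% of genes were called. Mrps14, a conserved small-subunit protein, was at 23.9, 29.05 and 26.6 CPM in WT and 21.2, 16.4 and 19.97 CPM in KO at 0 h, and at 24.7, 18.3 and 18.6 CPM in WT and 26.8, 25.3 and 23.8 CPM in KO at 24 h. WT libraries were thus above KO ones at 0 h, and at 24 h WT library 1 lay among the KO ones and the other 2 below them. Both calls were lost without library 2 of WT Control 0 h, library 3 of KO Control 0 h, library 2 or 3 of WT Control 24 h, or library 1 or 2 of KO Control 24 h, and that of Mrpl51 without 4 more, and the count was 3 without library 2 of KO Control 0 h. For the change from 0 to 2 h, 0 of 76 were called by edgeR or DESeq2, where edgeR called 4.77% of genes. At an unadjusted p under 0.05 that change had 8 members, a count that was not made over all genes. A single member (1 of 76) was called there without library 1 or 2 of WT Control 0 h, library 2 of KO Control 0 h, library 2 of WT Control 2 h or library 1 of KO Control 2 h.

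The comparison of KO with WT, which asks what the Irf5 deletion changes, gave few calls among the members. In untreated cells at 0 h 1 member was higher and 4 were lower in KO, where 12.5% of genes were called. At all other conditions at most 1 was called: 0 in Control 2 h (0.49% of genes), palmitate 2 h (0.146%), Control 24 h (0.12%), palmitate 24 h (0.0688%) and LPS 24 h (0.146%), and 1, lower, in LPS 2 h (0.465%). DESeq2 gave 0 in all 6 of these, and edgeR put 4, 7, 4, 4 and 6 members at an unadjusted p under 0.05 in the 5 comparisons with 0. The unadjusted count was not made over all genes. The medians in these 6 lay within 0.1 of 0 on the log2 scale. The member at LPS 2 h was Mrpl22 (-0.77, SE 0.19, adjusted p = 0.0464), with WT libraries at 15.4, 13.2 and 10.4 CPM and KO libraries at 6.45, 8.31 and 7.14 CPM. Granulocyte markers summed to 50.1 to 76.9 CPM in the WT libraries and 137 to 243 CPM in the KO ones. Fibroblast markers summed to 0.371 to 0.716 CPM in WT and 0.759 to 152 CPM in KO. The part of either in the difference of Mrpl22 was not tested. Its call was lost without library 1 or 2 of WT LPS 2 h (-0.66 and -0.75) or any of the 3 KO libraries (-0.72, -0.89 and -0.74).

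At 0 h the lower members in KO were Mrpl42 (40.5, 31.4 and 35.3 CPM in WT, 26.1, 24.7 and 24.8 CPM in KO, log2 difference -0.50, SE 0.12), Mrps14 (-0.47, SE 0.13), Mrpl48 (-0.57, SE 0.17) and Mrps16 (-0.82), none with overlap between the genotypes. Mrpl42 stayed called when any 1 library was left out. Mrps14 was not called without library 2 of WT (-0.40) or of KO (-0.35), and Mrpl48 not without library 1 of WT (-0.53) or library 1 (-0.49) or 2 (-0.53) of KO. The count of 5 was 3 without library 2 of WT and 2 without library 2 of KO. Cytosolic ribosomal proteins were lower in the same comparison, with 27 of 80 called and a median of -0.22, where 12.5% of all genes were called in either direction. Fibroblast markers summed to 0.529 to 0.905 CPM in WT and 42.1 to 69.3 CPM in KO at 0 h, with 3 of 3 tested higher in KO and Dcn and Pdgfra at 0 in the median library, and granulocyte markers to 50.8 to 61.3 CPM in WT and 81.7 to 87.7 CPM in KO, with 1 of 6 tested higher in KO. The part of either in these differences was not tested.

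Mrps6 was the one higher in KO at 0 h. It was at 7.06, 11.7 and 13.2 CPM in WT and at 27.1, 17.8 and 28.4 CPM in KO (log2 difference 1.17, SE 0.22, adjusted p = 0.000201), with no overlap. Within KO it then fell, to 6.70, 10.2 and 9.67 CPM at 2 h (-1.46, SE 0.23) and to 9.44, 12.6 and 12.2 CPM at 24 h (-1.08, SE 0.22). Its value in the other 13 groups lay between 4.90 and 15.1 CPM, so the 3 KO libraries at 0 h were the highest of the 42. Mrps6 lies at chr16:92058270-92112227 on the plus strand (GRCm38) and its exons share 159 bases with Slc5a3, a transporter of sodium and inositol known to respond to osmotic stress. Slc5a3 followed the same course, with 51.2, 42.6 and 45.9 CPM in WT and 256, 110 and 289 CPM in KO at 0 h (2.23, SE 0.19), and in KO it fell by 2.72 to 2 h and by 2.48 to 24 h. Library 2 of KO Control 0 h was the lowest of its group for both genes. At LPS 24 h Slc5a3 fell by 1.56 in WT and 1.02 in KO, and Mrps6 had -0.48 and -0.09, neither called. Without library 2 of WT LPS 24 h Mrps6 was called lower in WT (-0.78), and a difference between both genes was not tested. Reads that belong to the shared exon cannot be told apart from these counts, and their part in the change of Mrps6 was not tested.

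**Figure D5:**
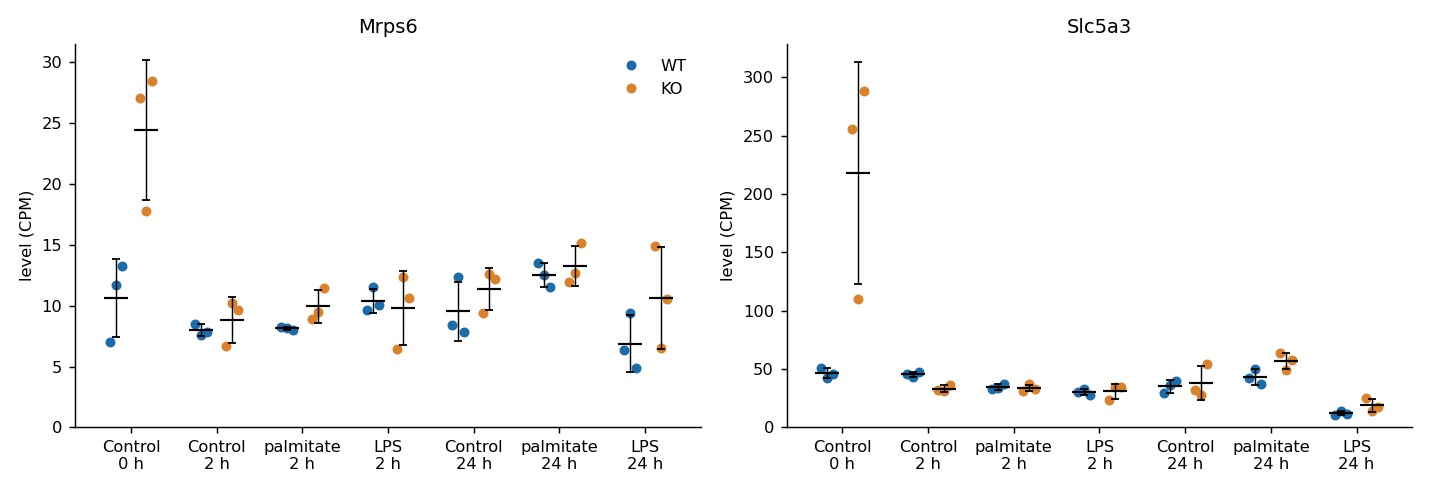
CPM of Mrps6 (left) and Slc5a3 (right) in each library by condition, with blue points for WT, orange points for KO and bars for the mean ± SD of 3 libraries; the vertical scales differ. Both genes are highest in KO Control 0 h, where Mrps6 is at 17.8 to 28.4 CPM and Slc5a3 at 110 to 289 CPM.

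Over the 19 comparisons of 2 groups, 24 of 76 members were called in none and 50 in at least 1 comparison of LPS with Control. The same counts were not made over all genes, so these are not a trait of the members. LPS at 24 h alone called 39.5% of all genes in WT and 40.9% in KO. Mrpl42 was called in 4, higher with LPS at 24 h in each genotype, lower at 2 h than at 0 h in WT Control, and lower in KO than in WT at 0 h. Some of these comparisons share the same Control libraries.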

How the data were processed

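RNA was sequenced from 42 BMDM libraries in 14 groups of 3. Per the study's methods, libraries were made with a stranded total RNA kit after depletion of ribosomal RNA and sequenced as paired ends. The submitters' processing notes name fastp 0.19.11, STAR 2.7.3a and the builds mm10 and mm9. The authors deposited raw read counts per Ensembl gene for 37310 rows, with no normalisation. The annotation release and the use of strand in counting were not given in the sources used here. GENCODE models of GRCm38 gave symbols, exons and coordinates, and RefSeq gave promoters. Columns of the table name a group but no replicate number, so library numbers follow column order and only name a library.

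Genes were filtered with filterByExpr, which left 11624 with 99.88% of all counts. They were fitted in edgeR 4.0.16 (quasi-likelihood F test, 1 mean per group, TMM scaling, all 42 libraries) in R 4.3.3 with limma 3.58.1, and called at a Benjamini-Hochberg adjusted p under 0.05 over all genes in each of 27 comparisons. SE is the fold change divided by the square root of F. The common biological coefficient of variation was 8.0%, and no 2 libraries of a group agreed within counting noise. Alternatives were RLE size factors, library totals, no filter, a fit of only the libraries compared, DESeq2 1.42.0, leaving out each library and, added after seeing the data, leaving out the 4 shallowest libraries or the members with exon overlap. The scripts were tested on simulated data. Tables and figures used Python 3.11.15, pandas 2.3.3, numpy 2.4.6 and matplotlib 3.10.9.

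Members, gene lists and comparisons were chosen with earlier results of these data known. Named members were, per comparison and direction, at most 4 (3 for genotype and interactions) of smallest adjusted p among called members whose groups do not overlap, then Mrps6, Mrpl12, Mrps12, Mrps36, Mrpl58 and Mrpl10, and the 3 highest and 3 lowest per kb. Mrpl35, Mrpl42 and other members named outside the comparison that chose them, and Mrps16, were added after their values were seen.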

Additional observations from a re-analysis of the deposited data

Results flagged for a closer look

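The change in Control from 0 to 24 h differed between genotypes for 2 members, with a log2 difference (KO minus WT) of 0.79 for Mrps14 and 0.76 for Mrpl51. Each was called in edgeR's test of the difference, in 3 libraries per group. Over all genes 1.83% were called, so 2 of 76 is near the background. The call of Mrps14 was lost without any one of 6 of the 12 libraries (0.70 to 0.81) and that of Mrpl51 without any one of 10 (0.69 to 0.79).

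The LPS effect differed between 24 and 2 h, by a test of the difference itself, for 23 of 76 members in WT and 26 in KO. Over all genes 32.6% were called in WT and 33.4% in KO, so the number called in both directions together is near the background in each. By direction it was not. All called members but Mrpl39 had the higher effect at 24 h, where 14.5% of genes in WT and 14.3% in KO were higher and 18.1% and 19% lower. In WT the log2 difference (24 h minus 2 h) was 1.42 for Mrpl41, 0.92 for Mrpl51, 0.94 for Mrpl54, 0.93 for Mrpl46 and -0.72 for Mrpl39. In KO it was 0.98 for Mrpl12, 1.19 for Mrpl35, 1.21 for Mrpl22, 1.36 for Mrpl36 and -0.56 for Mrpl39. The call of Mrpl39 in KO was lost in 8 of the fits that leave out 1 library (-0.54 to -0.37).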

How the results depend on the processing

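No paired analysis was possible because the columns of the count table carry no replicate numbers. For members named because a comparison called them, no log2 fold change of that comparison turned sign. Of these checks 494 kept their side of the threshold and 94 lost it, none of them for LPS at 24 h. Values given without a call were not in these checks. One of them turned sign, as Mrps6 in KO at LPS 24 h went from -0.09 to 0.14 without library 2 of KO LPS 24 h. In WT Mrps6 became called lower without library 2 of WT LPS 24 h (-0.78). Counts of called members that moved by over 1.5 times were as follows, and the cause was not tested. With library totals in place of TMM, WT LPS 2 h gave 20, KO LPS 2 h 33, KO LPS 24 h 13, WT Control 2 h minus 0 h 1, WT 24 h minus 0 h 1, KO 24 h minus 0 h 2 and the interaction of Control 24 h minus 0 h 1. This scaling moves the median of all genes to -0.17 for WT LPS 2 h and -0.19 for KO LPS 2 h. For none of the alternatives is the share of all genes called given here, so these counts have no background beside them. With no filter the counts were 5 for WT LPS 2 h, 7 for KO LPS 2 h, 16 for KO LPS 24 h, 1 for WT 2 h minus 0 h, 1 for KO 2 h minus 0 h, 1 for WT 24 h minus 0 h, 3 for KO minus WT at 0 h and 1 for each interaction of Control time. In a fit of only the libraries compared they were 5 for KO LPS 2 h, 5 for WT 24 h minus 0 h and 1 for the interaction of 2 h minus 0 h. Without the 4 shallowest libraries WT 24 h minus 0 h gave 4 and each interaction of Control time 1. The single call of KO minus WT at LPS 2 h became 0 with RLE, no filter, only the libraries compared, DESeq2 and without the shallowest libraries.

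Leaving out 1 library at a time gave 4 to 6 for WT LPS 2 h, 7 to 15 for KO LPS 2 h, 19 to 30 for WT LPS 24 h, 14 to 22 for KO LPS 24 h, 0 to 2 for WT 2 h minus 0 h, 1 to 3 for KO 2 h minus 0 h, 1 to 4 for WT 24 h minus 0 h, 1 to 2 for KO 24 h minus 0 h, 2 to 4 for KO minus WT at 0 h, 0 to 1 at LPS 2 h, 0 to 1 and 0 to 3 for the interactions of Control 2 h and 24 h, and 19 to 24 (WT) and 20 to 27 (KO) for the difference between LPS times. The other comparisons stayed at 0. Depth limits the members' precision, since a level of 10 to 40 CPM is a small count in the shallowest library.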
